A study of Homo sapiens with 6 samples.

Results

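The 6 genes CXCL1, CXCL2, CXCL3, CXCL5, CXCL6 and CXCL8 encode the CXC chemokines that attract neutrophils through the receptors CXCR1 and CXCR2. They were taken as the rows whose Ensembl gene identifiers carry these symbols, and all 6 were found among the 61541 genes listed in each of the 6 count files. The cells were RCC4, an established human line from a clear cell kidney cancer, as 3 cultures left untreated and 3 given interferon gamma (IFNγ, 1000 U/mL) with tumour necrosis factor (TNF, 25 ng/mL) for 24 h. Each replicate combined 3 flasks, per the labels. All cultures are of the same line, so the replicates sample cultures and not donors, and the cytokines were given only together, so the part of either cannot be told apart.

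CXC chemokines of this type carry a glutamate-leucine-arginine motif ahead of their first cysteines, which the CXCR1 and CXCR2 receptors of neutrophils read. Their genes sit together on the long arm of chromosome 4, arose by duplication, and are classic targets of NF-kappaB, the transcription factor family that TNF switches on. Their mRNAs hold AU-rich elements, short AUUUA-containing stretches that decay factors such as the ZFP36 proteins bind. In clear cell renal carcinoma, CXCL8 and its relatives are known as tumour-derived signals to neutrophils and blood vessels.

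The RefSeq promoter table (GRCh38.p14) held all 6 genes, each as a window from 250 bases before to 50 bases after the transcription start. The bases just ahead of the start are shown because 1 short stretch was shared by all 6 windows. Capitals mark the 9 letters GGAATTTCC, a binding sequence for NF-kappaB dimers (a kappaB match). Each sequence is written 5′ to 3′ on the gene's own strand and ends at the base before the RefSeq start.
CXCL8 (chr4:73740449-73740568, plus strand): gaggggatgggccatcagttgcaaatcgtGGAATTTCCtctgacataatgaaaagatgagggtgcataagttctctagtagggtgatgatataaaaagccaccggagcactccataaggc
CXCL6 (chr4:73836558-73836677, plus strand): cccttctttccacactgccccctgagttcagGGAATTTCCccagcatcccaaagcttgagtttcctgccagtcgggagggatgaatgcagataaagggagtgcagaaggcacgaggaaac
CXCL1 (chr4:73869273-73869392, plus strand): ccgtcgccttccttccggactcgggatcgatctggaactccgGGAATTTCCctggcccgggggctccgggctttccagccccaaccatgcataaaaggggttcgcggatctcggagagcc
CXCL5 (chr4:73998678-73998797, minus strand): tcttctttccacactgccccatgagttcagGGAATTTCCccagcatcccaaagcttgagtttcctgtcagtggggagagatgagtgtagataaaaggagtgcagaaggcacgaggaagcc
CXCL3 (chr4:74038690-74038809, minus strand): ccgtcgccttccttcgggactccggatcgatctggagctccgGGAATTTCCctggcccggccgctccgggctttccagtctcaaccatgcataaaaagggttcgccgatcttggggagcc
CXCL2 (chr4:74099196-74099315, minus strand): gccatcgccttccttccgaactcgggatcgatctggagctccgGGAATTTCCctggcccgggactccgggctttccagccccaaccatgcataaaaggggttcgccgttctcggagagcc

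The 9 letters began 91 bases before the start in CXCL8, 89 in CXCL6, 90 in CXCL5, 78 in CXCL1 and CXCL3, and 77 in CXCL2. Searched on both strands, GGAATTTCC was present in 6 of 6 member windows and in 0.461% of the 35116 promoter windows of the table. The same letters with 1 more G ahead of them were found in 5 of 6, all but CXCL8, and in 0.145% of all windows. The motifs searched were chosen after these sequences had been seen. In CXCL1, CXCL2 and CXCL3 the letters CATAAAA, which resemble the core promoter element that binds the TFIID complex, began 31 bases before the start (3.70% of all windows hold them). In CXCL8 the letters TATAAA began at the same distance (11.5% of all windows). CXCL5 and CXCL6 held neither, but their sequences above carry the similar letters GATAAA near the same place, which were not searched. The AP-1 motif TGANTCA occurred in the CXCL8 window alone among the 6, 137 bases before the start, against 7.71% of all windows. The interferon-stimulated response element (ISRE), searched as GAAA, any 2 bases and GAAA, was in 0 of 6 member windows and in 3.57% of all windows.

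For comparison, the window of CXCL10, a chemokine that acts on CXCR3, held an ISRE match 221 bases before the start and the kappaB letters on the opposite strand 176 bases before it, both in capitals here.
CXCL10 (chr4:76023658-76023727, minus strand): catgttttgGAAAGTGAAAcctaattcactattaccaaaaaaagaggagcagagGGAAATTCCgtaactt
CXCL9 also held an ISRE match, 171 bases before the start, and no kappaB match. CXCL11 held none for the ISRE, and had the kappaB letters on the opposite strand and an AP-1 match, 75 and 87 bases before the start. A match describes letters in a window and is not evidence that a factor was bound.

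**Figure D1:**
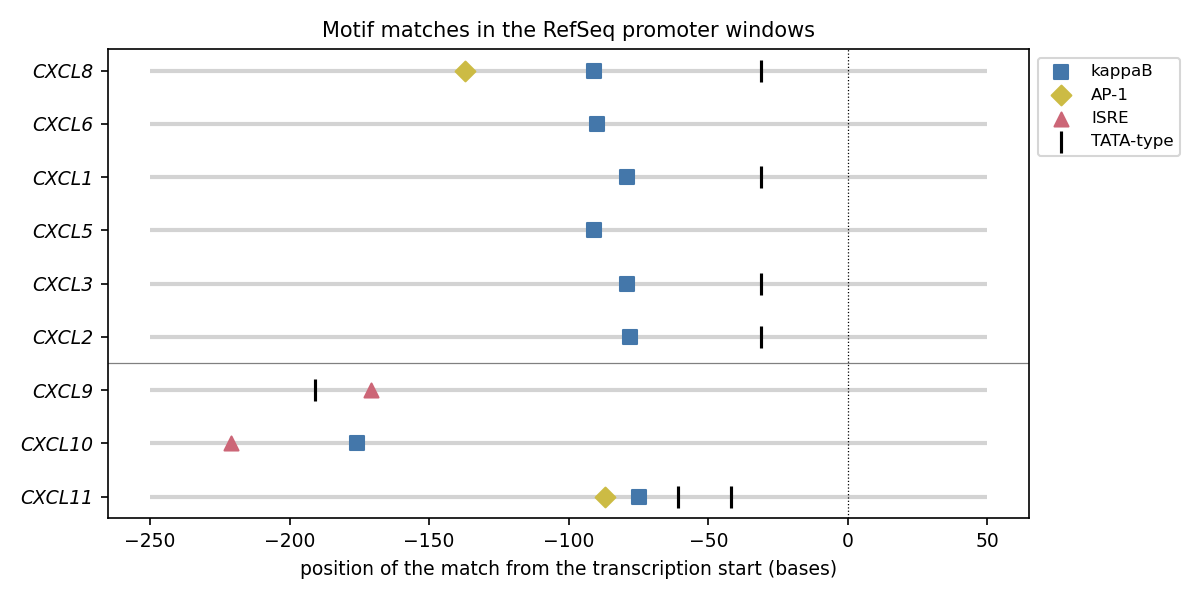
Positions of motif matches (symbols) along the RefSeq promoter windows of the 6 members, above the line, and of CXCL9, CXCL10 and CXCL11, below it, as bases from the transcription start. The kappaB matches of the 6 members lie close together ahead of the start, 91 to 77 bases for the 9-letter motif, and the TATA-type matches of CXCL8, CXCL1, CXCL3 and CXCL2 lie at 31 bases. TATA-type means TATAAA or CATAAAA here, and the letters GATAAA of CXCL5 and CXCL6 were not searched.

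Counts per library totalled 3626000 to 4406296 reads. Levels are given as CPM, counts put on one library size with TMM, a correction for library make-up. The limit that a count of 0 allows, 3 counts, lay at 0.674 to 0.863 CPM. The 6 members together took 278, 334 and 169 counts in untreated replicates 1, 2 and 3 and 602, 991 and 578 counts in treated replicates 1, 2 and 3. Their summed level was 65.5 ± 24.6 CPM untreated and 186.6 ± 31.4 treated (SD, n = 3 each), a 2.85-fold ratio of means that is a description, since members were chosen with results known. Of 12 renal carcinoma epithelial markers LRP2 was at 0 and CUBN had at most 2 counts in any library, whereas PAX8, CA9, VIM, KRT8 and KRT18 had counts in every library. The list summed to 7281 to 9029 CPM in untreated and 10810 to 15570 CPM in treated libraries. Of its 10 tested genes 2 were called higher (VIM and NNMT, log2 0.66 and 1.64) and 2 lower (PAX8 and KRT19, log2 -0.79 and -1.08). Over all genes tested, 5.58% were called higher and 2.55% lower. The calls of VIM, PAX8 and KRT19 were lost in 4, 5 and 3 of 6 fits that left out 1 library. KRT8 and KRT18 had log2 values of 0.32 and -0.01 and did not pass. The part of these marker differences in the results was not tested. Among 11 leukocyte markers 9 were at 0, including PTPRC and the neutrophil genes CSF3R, S100A8 and MPO, and the list summed to 0 CPM in untreated and 0.225 to 0.575 CPM in treated libraries. All 5 endothelial markers were at 0. The fibroblast list summed to 54.6 to 73.9 CPM in untreated and 27.3 to 48.9 CPM in treated libraries, all of it COL1A1 (log2 -0.62, edgeR adjusted p 0.23) and PDGFRB (log2 -1.91, edgeR adjusted p 0.0049), with DCN, LUM and COL1A2 at 0. In bulk RNA, fewer cells making a transcript and less of it per cell cannot be told apart.

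After cytokine exposure CXCL2 and CXCL5 rose. CXCL1 and CXCL8 had higher means in treated cells but did not pass the test, CXCL6 overlapped between the groups, and CXCL3 was too rare to be tested. The test was edgeR's quasi-likelihood F test over 10067 genes, and a gene was called where its Benjamini-Hochberg adjusted p lay below 0.05. Of the 5 members tested, 2 were called higher and 0 lower, beside 5.58% of all genes called higher, 2.55% lower and 8.14% in either direction. CXCL2 passed the filter on low counts through the treated libraries alone, so its count among the called members is no support by itself. With library totals in place of TMM the split of all calls went from 562 higher and 257 lower to 485 and 364, and the median log2 value over all genes from -0.03 to -0.13, with the same 2 members called. In CPM the lowest treated library exceeded the highest untreated one for 5 of the 6 genes, all but CXCL6, against 13.9% of the genes tested. CXCL3 was not among the genes tested, and its nearest libraries, untreated replicate 2 and treated replicate 3, had 5 counts each. The number of separated genes fell to 3, CXCL3 included, when libraries were scaled to their totals alone, since CXCL1 and CXCL8 then overlapped.

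**Figure D2:**
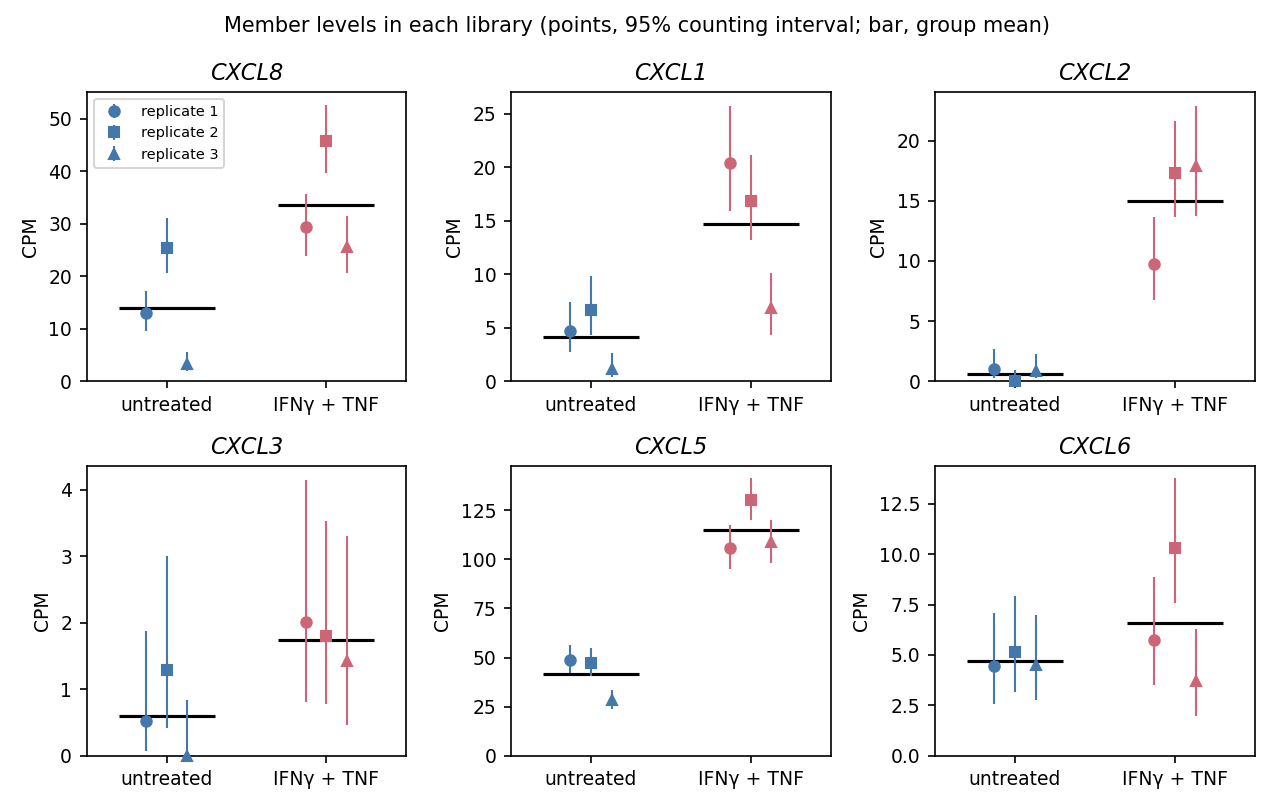
CPM of each member in each library (points; marker shape gives the replicate number, bars on points the 95% Poisson counting interval, horizontal line the group mean of 3 libraries; vertical axes start at 0 and differ between genes). CXCL5 and CXCL2 separate widely, from 28.3 to 48.8 against 105.9 to 130.5 CPM and from 0 to 1.04 against 9.78 to 17.9 CPM, whereas CXCL1 and CXCL8 groups nearly touch.

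CXCL1, CXCL2 and CXCL3, also named GRO alpha, beta and gamma, are close relatives that signal mainly through CXCR2. CXCL2 (ENSG00000081041; chromosome 4, 74097040 to 74099196, minus strand) had 4, 0 and 4 counts in untreated replicates 1, 2 and 3 and 34, 77 and 63 counts in the treated ones. As CPM these were 1.04, 0 and 0.904 in untreated and 9.78, 17.3 and 17.9 in treated libraries. The gene was close to the counting limit in every untreated library and above it in every treated library. It averaged 0.649 ± 0.566 untreated and 14.99 ± 4.52 CPM treated (SD, n = 3 each), or log2 4.45 (SE 0.62, 95% interval 3.06 to 5.84; edgeR adjusted p 0.00221). Of the 10067 genes tested, 89 had a larger log2 fold change. The size of that rise rests on 8 untreated reads in all.

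CXCL1 (ENSG00000163739; chromosome 4, 73869393 to 73871308, plus strand) had 18, 26 and 5 counts without and 71, 75 and 24 counts with the cytokines, in the order of replicates 1, 2 and 3 used throughout. These were 4.69, 6.69 and 1.13 CPM against 20.4, 16.8 and 6.82 CPM. Replicate 3 was the lowest library in both groups, and treated replicate 3 lay just above untreated replicate 2. The means were 4.17 ± 2.82 and 14.7 ± 7.06 CPM (SD, n = 3 each), or log2 1.83 (SE 0.59, 95% interval 0.50 to 3.16; edgeR adjusted p 0.107). With DESeq2 on the same genes the adjusted p was 0.0227, and with edgeR on every gene with at least 1 count it was 0.000107. Over 13 alternatives fitted to CXCL1 itself the adjusted p ran from 0.000107 to 0.27, and 3 passed the threshold.

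CXCL3 (ENSG00000163734; chromosome 4, 74036589 to 74038807, minus strand) had 2, 5 and 0 counts without and 7, 8 and 5 counts with the cytokines. Its levels, 0.603 ± 0.647 and 1.74 ± 0.301 CPM (SD, n = 3 each), lay near the counting limit in both groups and did not reach the filter on low counts. In a fit of all genes having 1 or more counts its log2 estimate was 1.55 (SE 0.76), with an unadjusted p of 0.0403 and an adjusted p of 0.303 in edgeR. In that fit 4.43% of 19158 genes were called higher.

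The counting may have divided or dropped reads of these relatives. The coding sequences of CXCL2 and CXCL3 were identical at 94.4% of aligned positions, those of CXCL1 and CXCL2 at 93.5%, and those of CXCL1 and CXCL3 at 90.7% (GENCODE 29 transcripts). The parts after the stop codon, from which direct RNA reads start, were identical at 85.7% for CXCL1 and CXCL2, 61.4% for CXCL2 and CXCL3 and 60.9% for CXCL1 and CXCL3. With the counts of all 3 genes summed into 1, the log2 fold change was 2.54 (SE 0.41) with an edgeR adjusted p of 0.00521. None of the exonic bases of CXCL1, CXCL2 or CXCL3 lay in an exon of another gene on the same strand.

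CXCL5 and CXCL6, also named ENA-78 and GCP-2, form a second pair, with 87.5% identical coding positions and 83.1% identical promoter windows. CXCL5 (ENSG00000163735; chromosome 4, 73995642 to 73998677, minus strand) was the member with most counts, 187, 184 and 125 without and 368, 581 and 383 with the cytokines in replicates 1, 2 and 3. Its lowest treated library, at 105.9 CPM, stood 2.17-fold above its highest untreated library, at 48.8 CPM, so the groups were far apart. The means were 41.5 ± 11.4 and 115.0 ± 13.5 CPM (SD, n = 3 each), or log2 1.47 (SE 0.24, 95% interval 0.93 to 2.02; edgeR adjusted p 0.0053). Among all genes tested, 3.94% had a larger log2 fold change.

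CXCL6 (ENSG00000124875; chromosome 4, 73836640 to 73849064, plus strand), the remaining member of that pair, had 17, 20 and 20 counts without and 20, 46 and 13 counts with the cytokines. Treated replicate 2 was the highest library, at 10.3 CPM, and treated replicate 3 the lowest, at 3.69 CPM, so untreated libraries lay inside the treated range. Levels were 4.7 ± 0.389 and 6.59 ± 3.40 CPM (SD, n = 3 each), or log2 0.50 (SE 0.42; edgeR adjusted p 0.612). Its 95% interval ran from -0.44 to 1.44. Without treated replicate 2 the log2 fold change was 0.05. The pseudogene PPBPP1, at 0 counts in every library, covers 4.61% of the exonic bases of CXCL6 on the same strand and 18.8% of the last 500. These last bases come from all annotated exons of the gene merged, and which transcripts end there was not checked. Direct RNA reads of a transcript ending there could go uncounted. The part of this in the level, order and share of CXCL6 was not tested.

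CXCL8 (ENSG00000169429; chromosome 4, 73740541 to 73743716, plus strand) encodes interleukin 8, which binds both CXCR1 and CXCR2. It had 50, 99 and 15 counts without and 102, 204 and 90 counts with the cytokines. As CPM these were 13.04, 25.5 and 3.39 against 29.3, 45.8 and 25.6. Untreated libraries differed 7.51-fold among themselves, and the highest of them, replicate 2, reached the level of treated replicate 3. The means were 13.97 ± 11.1 and 33.6 ± 10.8 CPM (SD, n = 3 each), or log2 1.28 (SE 0.56, 95% interval 0.01 to 2.54; edgeR adjusted p 0.246). Without untreated replicate 2 the log2 fold change was 2.04 and without untreated replicate 3 it was 0.80, with adjusted p of 0.0875 and 0.145 in edgeR. It passed the threshold in 2 of 14 alternatives, 1 of them with every gene of 1 or more counts in the fit (edgeR adjusted p 0.000431).

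**Figure D3:**
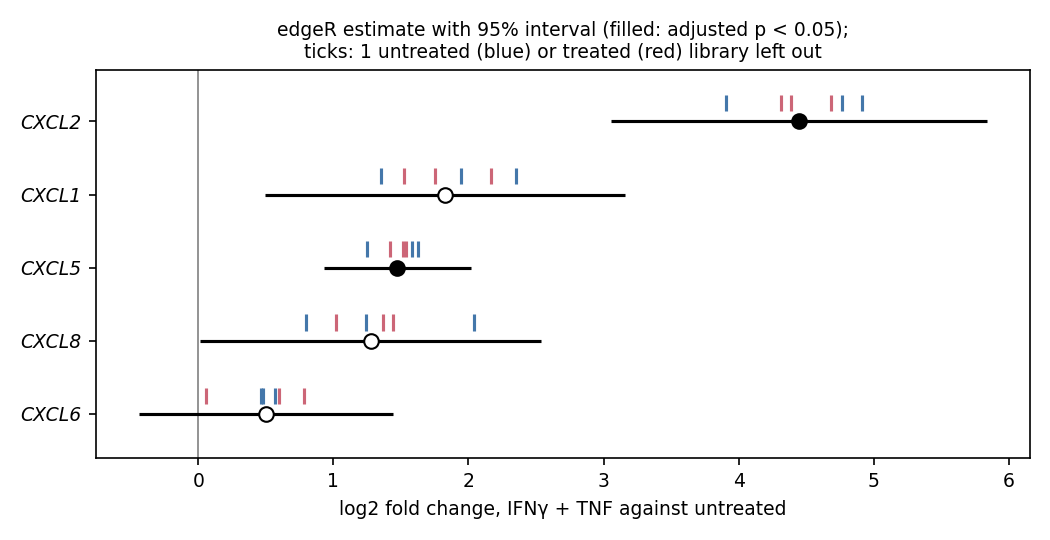
Log2 fold change of the 5 tested members (points, with 95% intervals as bars; filled where the adjusted p was under 0.05), and the value after leaving out each library (ticks; blue for untreated, red for treated). CXCL2 and CXCL5 are past the threshold, and the CXCL8 ticks spread from 0.80 to 2.04.

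Untreated replicate 3 was the lowest untreated library for CXCL1, CXCL3, CXCL5 and CXCL8, and treated replicate 2 the highest treated library for CXCL5, CXCL6 and CXCL8. Across the 6 libraries the log2 CPM of CXCL1 and CXCL8 had a Pearson r of 0.93, CXCL1 and CXCL5 0.88, and CXCL2 and CXCL8 0.53. These points share the libraries and the group difference, so the values are descriptions.

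Levels of different genes were compared per kilobase of annotated exon. In treated cells CXCL5 stood at 47.2 ± 5.52 CPM per kilobase, followed by CXCL8 at 14.99 ± 4.81, CXCL1 at 10.8 ± 5.18, CXCL2 at 10.7 ± 3.23, CXCL6 at 3.23 ± 1.67 and CXCL3 at 0.786 ± 0.135 (SD, n = 3 each). CXCL8, CXCL1 and CXCL2 lay within each other's spread. In untreated cells the order was CXCL5 at 17.0 ± 4.699, CXCL8 at 6.24 ± 4.95, CXCL1 at 3.06 ± 2.07, CXCL6 at 2.30 ± 0.191, CXCL2 at 0.464 ± 0.405 and CXCL3 at 0.272 ± 0.292 CPM per kilobase (SD, n = 3 each). CXCL2, below CXCL6 in untreated cells, was above it in treated cells. In direct RNA sequencing a molecule gives at most 1 read whatever its length, so levels were also ordered without division by length. CXCL5 and CXCL8 again had the highest and the next highest level in both groups. Other places changed. CXCL6 then lay above CXCL1 in untreated cells and CXCL2 above CXCL1 in treated cells, each within the spread. CXCL8 was then above CXCL1 and CXCL2 in every treated library. The order of these genes thus depends on the divisor, the length of all annotated exons merged.

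The make-up of the 6 genes' counts gives the same comparison within a library, free of scaling. CXCL5 held most of it in every library, 67.3%, 55.1% and 74.0% in untreated and 61.1%, 58.6% and 66.3% in treated replicates 1, 2 and 3. The share of CXCL2 was 1.44%, 0% and 2.37% in untreated and 5.65%, 7.77% and 10.9% in treated libraries, every treated value above every untreated one. The share of CXCL6 was 6.12%, 5.99% and 11.8% in untreated and 3.32%, 4.64% and 2.25% in treated libraries, every treated value below. Both differences, 6.84 and -4.58 percentage points of means, had an exact permutation p of 0.1 (2-sided), the lowest this design can give, and 0.3 once adjusted (Benjamini-Hochberg) for 6 shares. The shares of CXCL1, CXCL3, CXCL5 and CXCL8 overlapped between the groups, with exact permutation p from 0.5 to 0.8. The share of CXCL8 ranged most in untreated cells, at 18.0%, 29.6% and 8.88%.

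**Figure D4:**
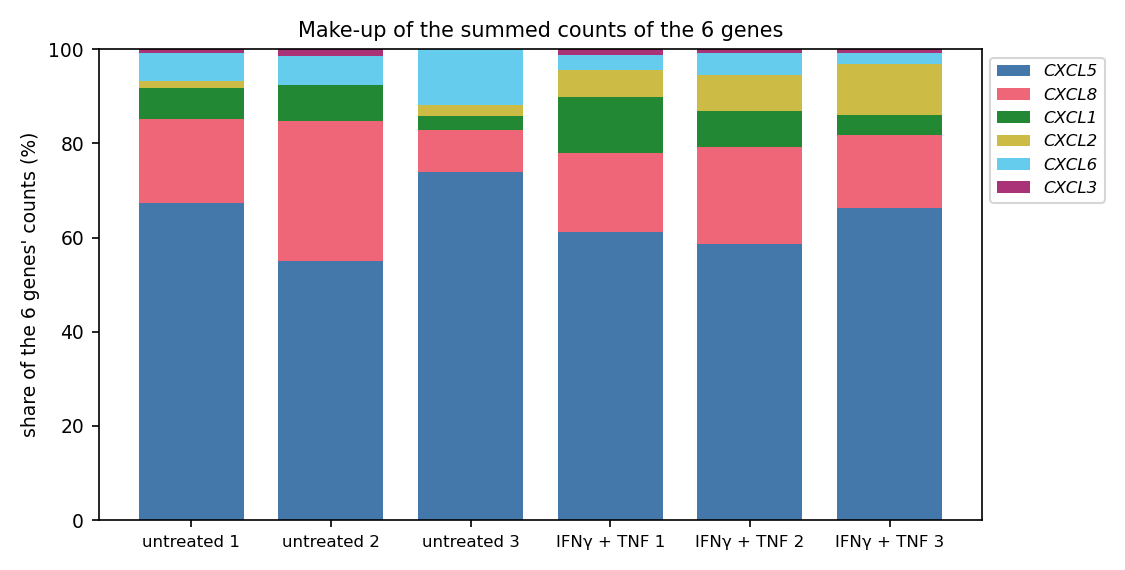
Share of each member (colour) in the summed counts of the 6 genes in each library, as percent of that library's sum, which ranged from 169 to 991 counts. CXCL5 is the largest part of every bar, and the CXCL2 part is larger in the 3 treated bars (5.65% to 10.9%) than in the 3 untreated ones (0% to 2.37%).

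The cluster on chromosome 4 spans 358.7 kb from CXCL8 to CXCL2, and the annotation lists 23 genes in it and the 50 kb on either side. Only 8 of these had any count, namely the 6 members, MTHFD2L and an unnamed gene (ENSG00000289241) with 5 counts in all. PPBP, which encodes another CXCR2 ligand, and the platelet factor genes PF4 and PF4V1 lie between the members and had 0 counts in all 6 libraries. The pseudogenes CXCL1P1, PPBPP1 and PPBPP2 were also at 0. MTHFD2L, a folate enzyme gene beyond CXCL2, averaged 17.5 ± 3.49 CPM untreated and 15.8 ± 2.94 treated (SD, n = 3 each), log2 -0.14 (SE 0.26, edgeR adjusted p 0.862), a value that changed sign in 1 of 13 alternatives.

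**Figure D5:**
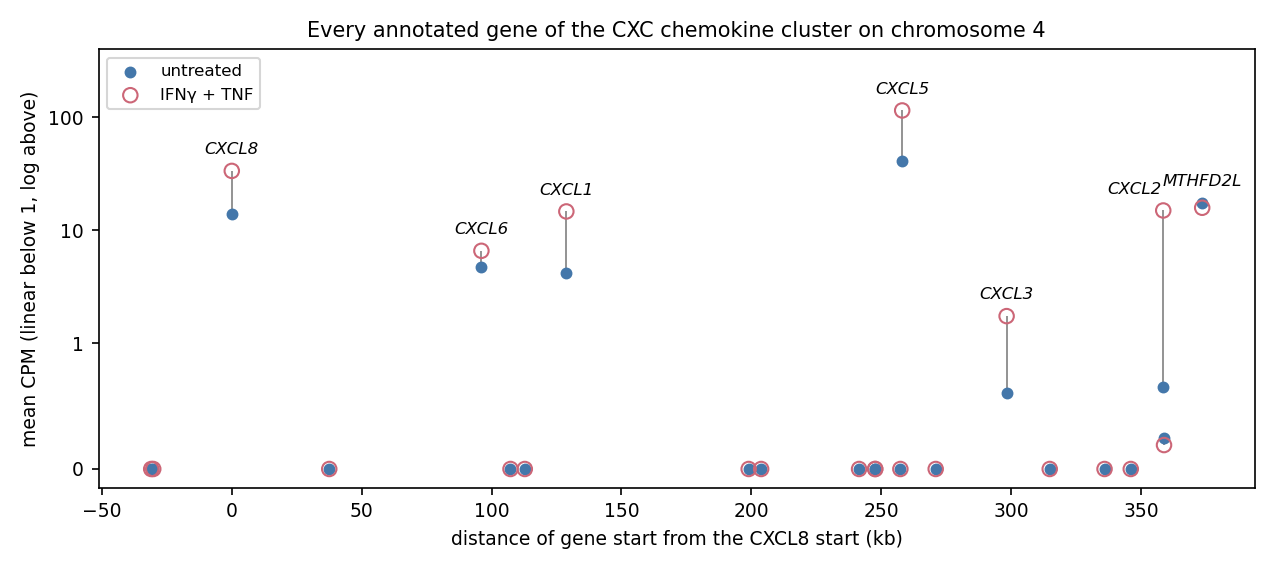
Mean CPM of 3 untreated (filled) and 3 treated (open) libraries for each of the 23 annotated genes of the cluster, against the distance of its start from that of CXCL8 in kb (vertical axis linear below 1 and logarithmic above). The 6 members and MTHFD2L rise above 1 CPM in at least 1 group, and 15 genes are at 0.

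The receptors CXCR1 and CXCR2 and the scavenger ACKR1 had 0 counts in all 6 libraries. Of the heparan sulphate proteoglycan genes SDC1, SDC4 and GPC1, whose products can hold chemokines at cell surfaces, 3 were tested and 0 were called in either direction. Over all genes tested 8.14% were called. SDC4 averaged 157.8 ± 29.3 CPM untreated and 252.5 ± 39.7 treated (SD, n = 3 each), with an edgeR adjusted p of 0.0806 (0.0155 without untreated replicate 3, and past the threshold in 4 of 13 alternatives). SDC1 had 205.5 ± 46.0 and 140.7 ± 17.8 CPM, with an edgeR adjusted p of 0.185 (0.0192 without untreated replicate 3, and past the threshold in 2 of 13 alternatives).

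Of 8 other CXC genes, 4 were tested and called higher, beside 5.58% of all genes tested. These 4 passed the filter on low counts through the treated libraries alone, so the count is a description. CXCL9, CXCL10 and CXCL11 had 0 untreated counts. Their treated means were 53.2 ± 18.7, 1106.5 ± 538.3 and 83.6 ± 51.6 CPM (SD, n = 3 each). These means were 68.1-fold, 1415-fold and 106.9-fold the highest level that 3 counts gave in an untreated library. Treated replicate 1 was the lowest treated library for each, at 31.6, 497.2 and 39.1 CPM. CXCL16 had 1, 2 and 3 counts without and 16, 23 and 35 counts with the cytokines, with a fitted log2 value of 3.65 (SE 0.55, edgeR adjusted p 0.00358). CXCL12, CXCL13 and CXCL14 were at 0 throughout.

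Transcription factors known from the promoters of these chemokines were followed next, on a list of 16 genes of which 13 were tested. Among these, 8 were called higher and 0 lower, beside 5.58% and 2.55% of all genes, with a median log2 fold change of 1.46 beside -0.03 over all genes tested. IRF1, an interferon-induced factor, averaged 33.8 ± 5.93 untreated and 1325 ± 155.9 CPM treated (SD, n = 3 each; log2 5.29, edgeR adjusted p 3.34e-06). ATF3 and JUNB, which belong to the AP-1 and ATF families, had log2 fold changes of 3.42 and 2.49, and CEBPB, a partner of NF-kappaB at the CXCL8 promoter, 2.55. RELA, the activating NF-kappaB subunit, was looked at after its values were seen: it rose from 100.9 ± 22.9 to 313.1 ± 64.1 CPM (log2 fold change 1.63, edgeR adjusted p 0.00301). NFKB1, its usual partner, also chosen that way, stood at log2 0.64 with edgeR adjusted p 0.0682 and passed in 1 of 13 alternatives. JUN and FOSL1 stood at log2 0.43 and 0.94 (edgeR adjusted p 0.255 and 0.159), and FOSL1 passed in 3 of 13 alternatives.

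Inhibitors and feedback genes of NF-kappaB gave 7 called higher and 0 lower of 8 tested among 9 listed, beside 5.58% and 2.55% of all genes, with a median log2 fold change of 1.5. BIRC3, 1 of the 7, had 4, 12 and 8 counts without and 20, 121 and 41 counts with the cytokines. It passed the filter on low counts through the treated libraries, so its call adds no support to that count. TNFAIP3, a deubiquitinase that limits TNF signalling, rose from 9.40 ± 2.45 to 155.1 ± 45.3 CPM (SD, n = 3 each; log2 4.04, edgeR adjusted p 4.39e-05). TRAF1, an adaptor of TNF receptors, had a log2 fold change of 4.17, NFKBIA, the main IkappaB inhibitor, 1.63, and TNIP1, a partner of TNFAIP3, 1.37. NFKBIB, another IkappaB gene, stood at log2 0.30 with edgeR adjusted p 0.593.

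All 6 members carried AU-rich pentamers in the part of the transcript after the stop codon. The letters ATTTA occurred 11 times in CXCL5, 10 in CXCL2, 9 in CXCL8, 7 in CXCL3, 6 in CXCL6 and 5 in CXCL1, where the median over 19115 coding genes was 1 (GENCODE 29, 1 transcript a gene). The share of these genes with fewer ran from 76.2% for CXCL1 to 91.4% for CXCL5. Per kilobase of that part, CXCL2 had 13.9 and CXCL3 10.4, CXCL8 and CXCL1 had 7.19 and 7.08, and CXCL5 and CXCL6 had 5.51 and 5.36. The median per kilobase was 1.54 over the 17581 genes with 100 or more bases there. Of the CXCR3 ligand genes, CXCL9 held 6, as many as CXCL6 and more than CXCL1, and CXCL10 and CXCL11 each held 1. Per kilobase these came to 2.58, 1.23 and 0.90. Of 11 listed genes for decay or stability of such mRNAs, 10 were tested, 3 were called higher and 0 lower, beside 5.58% and 2.55% of all genes, with a median log2 fold change of -0.03, the same as over all genes. The 3 were the RNA-binding decay factor genes ZFP36L2 and ZFP36 and the endonuclease gene ZC3H12A, with log2 fold changes of 2.51, 1.89 and 2.43. ZFP36, which encodes tristetraprolin, rose from 4.697 ± 1.14 to 17.5 ± 4.54 CPM (SD, n = 3 each; edgeR adjusted p 0.00669). ELAVL1, which encodes the stabilising protein HuR, and HNRNPD had log2 fold changes of -0.06 and -0.04, whose signs changed in 4 and 2 of 13 alternatives.

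Other secreted or surface factors tied to the recruitment of neutrophils, not all of them specific to these cells, were followed on a list of 20 genes. Of the 20, 10 had 3 or fewer counts in every library. Of 8 tested, 6 were called higher and 0 lower, beside 5.58% and 2.55% of all genes, with a median log2 fold change of 3.6. ICAM1, the endothelial and epithelial ligand of leukocyte integrins, averaged 27.7 ± 9.04 untreated and 1200 ± 164.8 CPM treated (SD, n = 3 each; log2 5.43, edgeR adjusted p 6.44e-06). SAA1, an acute phase protein gene, and CSF1, which encodes a macrophage growth factor, had log2 fold changes of 5.09 and 3.48. CCL2, a monocyte attractant, had a log2 fold change of 8.07. CSF2, which encodes GM-CSF, had 1.44 ± 0.874 and 6.03 ± 3.66 CPM with an edgeR adjusted p of 0.0933 (0.0408 without untreated replicate 3, and past the threshold in 4 of 13 alternatives), and LIF 43.7 ± 3.35 and 40.6 ± 2.73 CPM (SD, n = 3 each). CSF3, the gene of the neutrophil growth factor G-CSF, was at 0 in all 6 libraries, as were IL1A, IL36G and SELE.

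Genes whose levels ran most like those of the members were found by Pearson r of log2 CPM across the 6 libraries, among 6744 genes averaging 10 CPM or more. For the mean of the 5 tested members these were C1orf21, PLGRKT, RMC1, XKR6 and GUCD1, with r from 0.990 to 0.994. RMC1, which was called higher, had 23.7, 25.2 and 19.0 CPM in untreated and 53.8, 62.2 and 45.2 CPM in treated replicates 1, 2 and 3. CXCL1 ran closest to CPNE1, VHL and MED19, CXCL2 to an unnamed gene (ENSG00000279392), CALCOCO2 and CD47, and CXCL5 to CCBE1, DCBLD1 and C1orf21. CXCL6 ran closest to SKP1, ADK and QRSL1, and CXCL8 to PPIL2, SBNO2 and MRPL16. VHL, the tumour suppressor gene that gives its name to von Hippel-Lindau disease, had 279.5, 277.4 and 128.0 CPM in untreated and 657.1, 509.8 and 320.9 CPM in treated replicates 1, 2 and 3, with replicate 3 the lowest of each group, as for CXCL1, and did not pass the test (edgeR adjusted p 0.0908). With 6 libraries in 2 groups such values order many genes closely, and they are given as a description of likeness.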

How the data were processed

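Poly(A)-selected RNA (500 ng) of 3 untreated and 3 treated RCC4 cultures was read by direct RNA nanopore sequencing for 72 h, and reads with a quality above 7 were used, per the labels and the series design. The authors deposited raw read counts for each gene, from featureCounts 2.0.1 run in long-read, strand-specific mode on exons of Ensembl release 105 (GRCh38), per the file headers. The submitters' processing notes also name minimap2 2.24, SAMtools 1.16 and featureCounts 2.0.0. Neither multi-mapping reads nor reads overlapping several genes were set to be counted, per the file headers, so reads of near-identical genes may be missing. Alignment names in all 6 headers hold the word dmso, whereas the labels name no vehicle. Groups came from the titles.

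Counts were tested with edgeR 4.0.16 (quasi-likelihood F test, TMM, filterByExpr, group as the sole term) in R 4.3.3, with Benjamini-Hochberg adjustment over 10067 genes and a threshold of 0.05. CPM uses library totals times TMM factors. SE was derived from the estimate and its F statistic (absolute estimate over root F). Shares were compared by exact permutation. The labels say biological replicate without naming separate passages, so p-values measure the spread between these cultures. Poisson intervals of CPM and count limits cover counting error only. Intervals of log2 fold changes were built from the SE of the quasi-likelihood fit and so also include the spread between libraries.

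Alternatives were DESeq2 1.42.0 (test and size factors), limma 3.58.1 voom, library totals, a looser and a 10-count filter, a replicate block, leaving out each library, and summing CXCL1, CXCL2 and CXCL3. The edgeR, DESeq2 and voom code was tested on simulated data. The members, lists and tests were chosen with earlier results of these data known. Named were the 6 members and, from each list, up to 4 called genes by smallest adjusted p and up to 2 uncalled genes by highest mean CPM. Also named were the 3 genes most like each tested member, the 5 most like their mean, and cluster genes with a count. Symbols came from a table holding 61369 of 61541 identifiers. Promoters are from RefSeq (GRCh38.p14). Protein sequences were not used here.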

Additional observations from a re-analysis of the deposited data

How the results depend on the processing

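The calls of CXCL2 and CXCL5 held in the 13 alternatives fitted to each gene itself, and that of CXCL5 also where the GRO genes were summed, a fit that gives no count of members. None of the 5 tested members changed sign in these fits, and CXCL3 was fitted in 1 setting only. Leaving out 1 library gave log2 fold changes from 1.36 to 2.35 for CXCL1, from 3.91 to 4.91 for CXCL2, from 1.25 to 1.63 for CXCL5, from 0.05 to 0.79 for CXCL6 and from 0.80 to 2.04 for CXCL8, with 2 members called each time. Testing every gene with at least 1 count called 4 members and 1328 genes, with log2 fold changes of 1.85 for CXCL1 and 1.30 for CXCL8. DESeq2 gave 1.83 for CXCL1, and summing the 3 GRO genes gave 2.54. All of these passed the threshold. The sum holds other counts than CXCL1 alone. In the fit of every gene with at least 1 count the SE was 0.40 for CXCL1 and 0.30 for CXCL8. In the main fit these were 0.59 and 0.56, at log2 fold changes of 1.83 and 1.28. The lower adjusted p-values of the former fit thus came with smaller SEs and not with larger estimates of note. Both fits used the same counts of these genes, so a smaller SE is not a smaller spread between libraries. For the fits other than the sum the cause was not tested. The main test called 819 genes, and leaving out 1 library gave from 455 (without treated replicate 3) to 1178 genes, with 465 without untreated replicate 2.

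The replicate block called 4 members and 1513 genes, with log2 fold changes of 1.88 for CXCL1 and 1.47 for CXCL8 (edgeR adjusted p 0.00018 and 0.00042). Deviations of same-numbered libraries had r of 0.65, -0.0037 and 0.37 for numbers 1, 2 and 3. The first of these was the highest r of any combination. Untreated replicate 2 correlated best with treated replicate 1 (0.25) and untreated replicate 3 with treated replicate 2 (0.41). These values do not settle whether equal numbers are pairs. The labels name no pairs, so the main test took none.

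Without 1 library the treated minus untreated share, in percentage points, ran from 0.121 to 3.94 for CXCL1, 5.44 to 8.07 for CXCL2, -0.163 to 0.585 for CXCL3, -8.61 to 0.829 for CXCL5, -5.57 to -2.65 for CXCL6 and -6.11 to 4.27 for CXCL8. The CXCL3 and CXCL5 shares reversed without untreated replicate 3 and that of CXCL8 without untreated replicate 2. The ratio of summed levels ran from 2.34 to 3.37 without 1 library. Of the 26 genes outside the members that were called and followed across alternatives, 23 were called in all 13 alternatives. Where a list held more than 4 called genes, mainly those with the smallest adjusted p were followed, which favours calls that hold. The share over all called genes was not worked out. At these depths CXCL3, and CXCL2 in untreated cells, rest on single-digit counts.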

Other observations

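Beyond the CXC genes, the same stretch of chromosome 4 carries growth factor genes of the EGF family, whose products bind the EGF receptor. EREG was at 0 in all 6 libraries, EPGN had 1 count, and AREG gave 5, 2 and 0 counts without and 0, 2 and 2 with the cytokines. BTC, the betacellulin gene (chromosome 4, 74744759 to 74794523), gave 1, 2 and 1 counts without and 3, 9 and 9 with the cytokines. None of the 4 passed the filter on low counts. In the edgeR fit of every gene with at least 1 count, BTC had a log2 fold change of 2.38 (SE 0.83, adjusted p 0.058), AREG -0.68 (adjusted p 0.80) and EPGN 1.92 (adjusted p 0.69), and none passed the threshold. On the far side of CXCL8, RASSF6 gave 2, 0 and 5 counts without and 0, 1 and 0 with the cytokines, and AFP, an albumin family gene, had at most 3 counts in any library.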
